A study of Mus musculus with 192 samples.

Results

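The 5 chemokine genes followed through every ligand condition of the series were Ccl6, Ccl9, Ccl17, Ccl22 and Ccl24. They were chosen by name as chemokines often transcribed in cultures grown with GM-CSF, with earlier results of these data known. They are 5 of the 23481 genes in the deposited table. All 5 had a row there, and 4 passed the filter on low counts that left 4720 genes to be tested; Ccl24 did not. The cells were dendritic cells grown from the bone marrow of female C57BL/6J mice aged 6 to 8 weeks, in medium with recombinant murine GM-CSF at 15 ng/mL. No gene was deleted and no transgene was carried, as far as the labels say. Each well held 100000 cells, rested overnight and then exposed for 6 h to ligands of pattern recognition receptors. The ligands are labelled PAM, LPS, HMW, SeV, CpGB, 3',3'-cGAMP (written cGAMP here) and Zymosan depleted (written Zymosan here). The 64 groups were an untreated control (Ctrl), the 7 single ligands, all 21 pairs and all 35 triplets, with 3 libraries each. The labels do not say whether the 3 libraries of a group came from separate cultures or animals, so the p-values below measure only the spread between these libraries, which may be technical.

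Chemokines are small secreted proteins that bind receptors on passing leukocytes and direct their movement. Ccl17 and Ccl22 both bind Ccr4, a receptor of helper and regulatory T cells, and are known products of dendritic cells that have met a microbial signal or been grown with GM-CSF. Ccl6 and Ccl9 bind Ccr1, found on monocytes and neutrophils, and are made at a high rate by mouse myeloid cells without any stimulus. Ccl24 is an eotaxin that binds Ccr3 on eosinophils and is best known from macrophages exposed to interleukin 4.

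Library totals ran from 46564 to 610234 unique molecular identifiers (UMIs, tags that count each captured RNA molecule once), with a median of 171616.5. The 3 Ctrl libraries held 61823 to 89530 UMIs and were among the shallower ones. Levels are given as CPM (counts scaled to a common library total), and compare groups within a gene, not genes with each other. In bulk samples, fewer cells of a type and less RNA per cell cannot be told apart. Markers of the labelled cell type were present: H2-Aa, H2-Ab1, Cd74 and Itgax, MHC class II and dendritic cell integrin genes, had means of 2126, 1525, 773.9 and 421 CPM in Ctrl. Of the 10 dendritic cell markers Zbtb46 and Dpp4 had 0 counts there, and Flt3 and Ciita (4.617 and 4.157 CPM) were under the limit of 11.7 CPM that 3 counts give in Ctrl. Macrophage markers were also high, with a summed level of 4335 to 4541 CPM over 11 genes in the Ctrl libraries, so the cultures hold RNA of both kinds of marker. Of the members, Ccl6 and Ccl9 were abundant without a ligand and Ccl22 was measured in all 3 Ctrl libraries, while Ccl17 and Ccl24 had 1 UMI each over those libraries, where a count of 0 would allow up to 11.7 CPM.

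The 4 tested genes lie in 2 neighbouring couples on the mouse genome (GENCODE M21 annotation, GRCm38). Ccl9 (chr11:83572919-83578636, minus strand) and Ccl6 (chr11:83587882-83593087, minus strand) are 9.2 kb apart with no annotated gene between them. Ccl22 (chr8:94745590-94751699, plus strand) and Ccl17 (chr8:94810453-94812036, plus strand) are 58.8 kb apart, with Cx3cl1, another chemokine gene, and the pseudogene Gnb1-ps3 between them. Ccl24 lies alone at chr5:135569937-135573049 on the minus strand. Ccl6 overlaps E230016K23Rik, annotated on the opposite strand, and reads of both cannot be told apart unless the counting used strand, which is not given in the sources used here. None of the transcripts of Ccl6, Ccl17, Ccl22 and Ccl24 shared a stretch of 50 bases with a transcript of another gene. For Ccl9, 1.97% of such stretches were shared, none with another chemokine.

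Because neighbours of 1 couple moved apart and members of different couples moved together in the data that follow, the 250 bases before the RefSeq start site of 3 of them are shown (RefSeq, GRCm38.p6, 5′ to 3′ on the gene's own strand). Capitals mark matches to searched motifs. The windows are chr11:83593088-83593337 (minus strand) for Ccl6, chr11:83578637-83578886 (minus strand) for Ccl9 and chr8:94810203-94810452 (plus strand) for Ccl17.
Ccl6: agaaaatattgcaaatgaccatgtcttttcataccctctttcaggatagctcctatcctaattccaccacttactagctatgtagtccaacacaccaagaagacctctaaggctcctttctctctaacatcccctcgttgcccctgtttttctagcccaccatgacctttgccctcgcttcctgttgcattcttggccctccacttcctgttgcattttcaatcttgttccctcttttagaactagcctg
Ccl9: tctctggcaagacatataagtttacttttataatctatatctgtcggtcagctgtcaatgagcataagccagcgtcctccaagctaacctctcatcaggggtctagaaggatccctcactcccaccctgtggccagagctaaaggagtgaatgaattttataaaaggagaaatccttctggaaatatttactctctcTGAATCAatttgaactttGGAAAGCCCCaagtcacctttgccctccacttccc
Ccl17: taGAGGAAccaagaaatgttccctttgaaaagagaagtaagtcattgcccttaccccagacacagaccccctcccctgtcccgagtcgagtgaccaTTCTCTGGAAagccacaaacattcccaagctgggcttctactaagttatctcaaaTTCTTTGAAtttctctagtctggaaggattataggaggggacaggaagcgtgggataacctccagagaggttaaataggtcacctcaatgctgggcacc
A set of 6 motifs were searched on both strands in these windows and in that of Ccl22, which overlaps the GENCODE gene model and is not printed. The Ccl9 window held 1 match to the kappa-B consensus of NF-kB, first base 35 before the start, and 1 to the AP-1 motif TGANTCA, first base 53 before the start. The Ccl17 window held 1 match each to the STAT6 motif (first base 154 before the start), the STAT5 motif TTCNNNGAA (99 before) and the PU.1 core GAGGAA (248 before); none of the matches overlapped. The windows of Ccl6 and Ccl22 held no match to any of the 6, and the ISRE core was in none of the 4. Among 32536 promoter windows of the same length, the kappa-B consensus was found in 7.28%, AP-1 in 6.73%, the STAT6 motif in 5.89%, the STAT5 motif in 7.04%, the ISRE core in 2.98% and the PU.1 core in 23.4%. The longest run shared by the Ccl6 and Ccl9 windows was gccctccacttcc, 13 bases, first base 55 before the start of Ccl6 and 14 before that of Ccl9. The other 5 couplings of the windows shared runs of 7 to 10 bases.

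Ccl22 was raised by PAM, LPS and CpGB to a common level, and by Zymosan to a lower one. The Ctrl libraries gave 96.96, 212 and 134.4 CPM for Ccl22. PAM gave 892.3, 1116 and 1106 CPM, LPS 952.8, 1103 and 1078 CPM, and CpGB 989.8, 1174 and 1074 CPM. All 9 of these libraries lay above all Ctrl libraries, and their ranges overlapped one another. Zymosan gave 312.9, 281.6 and 354.6 CPM, above Ctrl and below PAM, LPS and CpGB with no overlap on either side. On the log2 scale Ccl22 rose by 2.81 ± 0.23 (SE) with PAM (edgeR adjusted p = 8.5e-25), 2.82 ± 0.23 with LPS (3.0e-25) and 2.87 ± 0.23 with CpGB (1.1e-25). With Zymosan it rose by 1.11 ± 0.27 (edgeR adjusted p = 0.0020), a change that dropped under the log2 threshold of 1 without replicate 1 of Ctrl (0.91) and under each other scaling of the libraries that was run (0.97 with RLE factors, library size alone and DESeq2). Its adjusted p was 0.11 when all libraries of replicate 3 were left out. The libraries of cGAMP (147.3 to 216.2 CPM), HMW (143.5 to 166.3) and SeV (103.2 to 161) overlapped those of Ctrl, and none of these contrasts passed the test.

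Ccl17, the other Ccr4 ligand, was close to undetected without a ligand. The 3 Ctrl libraries held 0, 0 and 1 UMI of it. PAM gave 17, 41 and 35 UMIs (111.5, 206.1 and 194.5 CPM), LPS 20, 23 and 32 UMIs (148.9, 127.5 and 143.2 CPM), and CpGB 15, 39 and 36 UMIs (145.6, 199.1 and 166 CPM). Every library of these 3 ligands lay above every library of Ctrl and of the other 4 ligands. Zymosan gave 36.81, 25.6 and 37.32 CPM, HMW 8.315, 26.9 and 27.88, SeV 19.11, 0 and 28.14, and cGAMP 9.17, 11.69 and 6.138. These 4 ligands formed an unbroken series in which each neighbour overlapped the next, down to Ctrl. Ccl17 passed the test for PAM, LPS and CpGB (edgeR adjusted p = 2.2e-10, 8.0e-09 and 1.9e-10) and missed it for Zymosan (0.067). Since Ctrl held 1 UMI, the size of the rise is best read from summed counts: 44.9-fold for PAM with an exact 95% interval of 7.86 to 1792, 35.7-fold for LPS (6.22 to 1430), 44.8-fold for CpGB (7.83 to 1787) and 8.56-fold for Zymosan (1.33 to 359.1). The fitted log2 change also rested on that UMI: for PAM it was 5.24, and 7.85 without replicate 3 of Ctrl, which held it. The intervals cover counting error only.

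**Figure D1:**
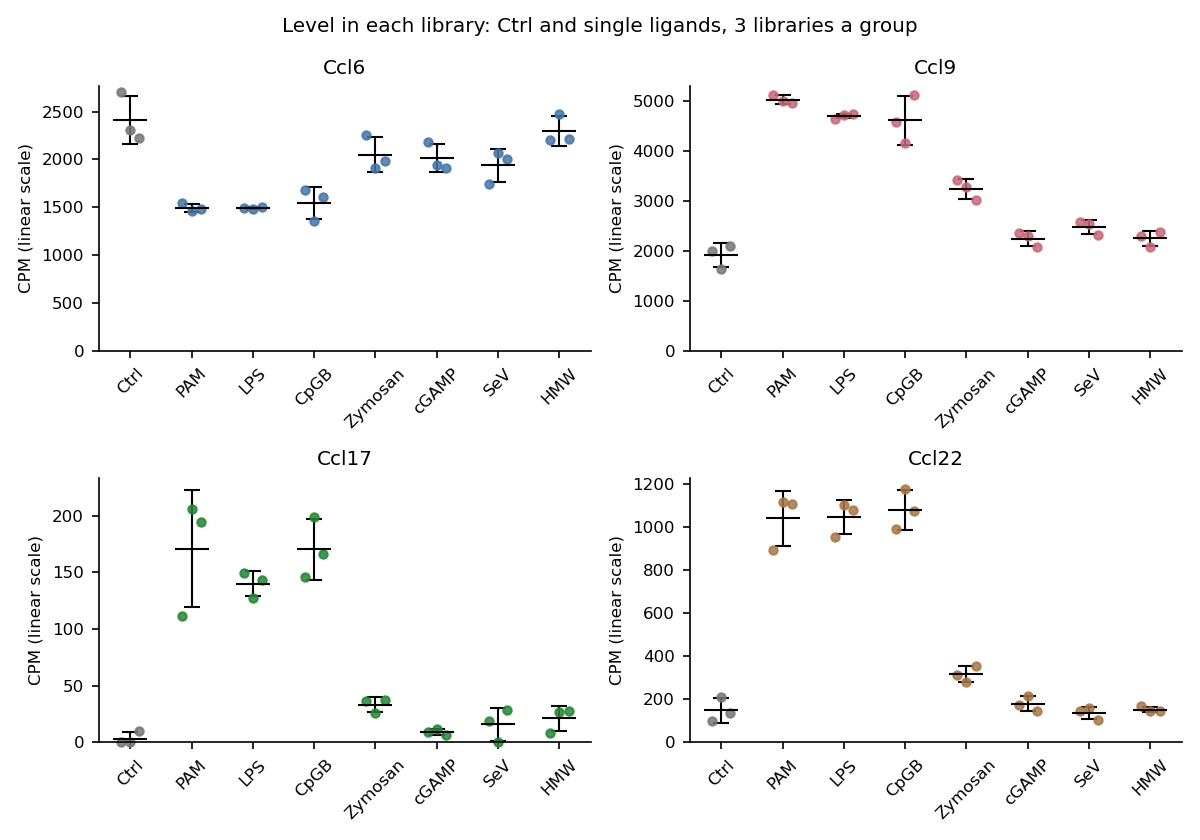
Level of Ccl6, Ccl9, Ccl17 and Ccl22 in CPM (vertical axis, linear, from 0) in each library of Ctrl and the 7 single ligands (horizontal axis); points are libraries, the bar is the mean and the whiskers are the SD of 3 libraries. Ccl9, Ccl17 and Ccl22 stand highest with PAM, LPS and CpGB, and Ccl6 stands lowest with the same 3 ligands.

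Ccl9 started from an abundant level and rose with the same ligands by a smaller factor. Its Ctrl libraries gave 1995, 1646 and 2103 CPM. PAM gave 5131, 4997 and 4956 CPM, LPS 4652, 4716 and 4747, CpGB 4580, 4156 and 5132, and Zymosan 3423, 3283 and 3018. The 4 groups were all above Ctrl; Zymosan lay apart from both sides, and PAM lay above LPS without overlap, while CpGB overlapped both. The log2 rise was 1.39 ± 0.10 with PAM (edgeR adjusted p = 5.0e-29), 1.29 ± 0.10 with LPS (2.3e-26), 1.27 ± 0.10 with CpGB (3.0e-25) and 0.75 ± 0.10 with Zymosan (6.6e-10). SeV gave 2590, 2537 and 2326 CPM, a rise of 0.37 ± 0.10 (edgeR adjusted p = 0.0049) with no overlap with Ctrl; it did not pass under the other scalings (adjusted p 0.074 to 0.22). HMW (2085 to 2375 CPM) and cGAMP (2081 to 2357 CPM) did not pass the test.

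Ccl6, 9.2 kb from Ccl9, went the other way. Its Ctrl libraries gave 2701, 2307 and 2227 CPM. PAM gave 1542, 1463 and 1478 CPM, LPS 1489, 1480 and 1508, and CpGB 1679, 1358 and 1605. These 9 libraries all lay below every library of Ctrl and of the other 4 ligands, whose lowest was 1739 CPM with SeV. Ccl6 fell by 0.69 on the log2 scale with PAM (SE 0.11, edgeR adjusted p = 1.7e-07), by 0.69 with LPS (SE 0.11, 8.8e-08) and by 0.64 with CpGB (SE 0.11, 9.4e-07). With SeV it fell by 0.30 (SE 0.11, edgeR adjusted p = 0.040; 1739, 2069 and 2007 CPM), and this did not pass when any 1 of the 6 libraries compared was left out (adjusted p 0.11 to 0.44). With Zymosan (2255, 1907 and 1983 CPM, adjusted p = 0.20), cGAMP (2182, 1946 and 1915 CPM, 0.083) and HMW (2204, 2475 and 2217 CPM, 0.94) the test was not passed. With RLE factors, library size alone and DESeq2 it was passed for Zymosan (log2 changes of -0.37 in each) and cGAMP (-0.38, -0.50 and -0.38). Ordered by mean, Ccl6 ran LPS, PAM, CpGB, SeV, cGAMP, Zymosan, HMW and Ctrl, and the single gap without overlap between neighbours was that from CpGB to SeV.

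Under the rule used for Ctrl contrasts, an adjusted p under 0.05 with a log2 change of at least 1, the single ligands gave 3 calls of 7 for Ccl9, 3 for Ccl17 and 4 for Ccl22, all higher. Over all genes and the 7 ligands, 8.7% of tests were called higher and 4.95% lower under that rule. No member was called lower under it, because the change of Ccl6 is smaller than the fold asked for. By adjusted p alone Ccl6 was lower with 4 of 7 ligands, where 6.84% of all tests were called lower, and with 6 of 7 under each of the 3 other scalings.

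Ccl24 was at the edge of detection in every condition. All libraries of the series together held 54 UMIs of it, 149 libraries held none, and the highest count in a library was 3. Pooled over the series that is 1.66 CPM, with an exact Poisson interval of 1.25 to 2.17 that covers counting error only. In 28 of the 64 groups no UMI was found. The limit of 3 counts over a group corresponds to 3.29 to 11.7 CPM over all 64 groups, depending on depth. The Ctrl libraries held 0, 1 and 0 UMIs and the SeV libraries 1, 0 and 1. Libraries with PAM, LPS or CpGB held 48 of the UMIs in 147 libraries, and the other 45 libraries held 6. No contrast was tested for Ccl24, which did not pass the filter on low counts.

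Over the 64 groups, Ctrl and single ligands included, the 4 tested genes divided by whether PAM, LPS or CpGB was among the ligands, with overlap for Ccl9 and Ccl6. That division of the groups, 49 with at least 1 of these ligands and 15 without, is taken from the labels. It was made after the single-ligand values had been seen, and these are among the groups, so it is given as a description. For Ccl22 the 49 group means ran from 826.3 CPM (PAM with HMW and cGAMP) to 1540 CPM (PAM with LPS and CpGB), median 1080. The next highest were PAM with LPS and cGAMP (1510 CPM) and LPS with CpGB (1470 CPM). The 15 others ran from 135.8 CPM (SeV), with Ctrl and HMW next, to 417 CPM (Zymosan with SeV and cGAMP), median 295. For Ccl17 the 49 ran from 107.7 to 332.2 CPM, median 167.4, and the 15 from 3.2 CPM in Ctrl, with cGAMP (8.998) and the triplet of HMW, SeV and cGAMP (9.722) next, to 54.82 CPM with Zymosan and SeV, median 24.05. For these genes the group means on either side did not overlap, as was the case for 1.21% of the tested genes in either direction.

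Ccl9 and Ccl6 showed the same division with some overlap. Ccl9 had group means of 3410 to 5470 CPM with PAM, LPS or CpGB (median 4606) and 1915 to 3437 CPM without (median 2449). Its highest groups were PAM with HMW (5470), with Zymosan (5199) and with SeV (5137), and its lowest Ctrl, cGAMP and HMW. The overlap came from LPS with Zymosan and cGAMP (3663, 3355 and 3212 CPM) on the upper side and HMW with Zymosan (3580, 3364 and 3368 CPM) and with Zymosan and SeV (3434, 3265 and 3541 CPM) on the lower. Ccl6 had group means of 1409 to 1862 CPM with these ligands (median 1589) and 1721 to 2412 CPM without (median 1915). Its lowest groups were the triplet of SeV, cGAMP and CpGB (1409 CPM), cGAMP with CpGB (1438) and PAM with LPS and SeV (1439), and its highest Ctrl (2412), HMW (2299) and Zymosan (2048). Ordered over all 64 groups, 63 of 63 neighbours overlapped in their libraries for Ccl6, 62 for Ccl9, 61 for Ccl17 and 62 for Ccl22.

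**Figure D2:**
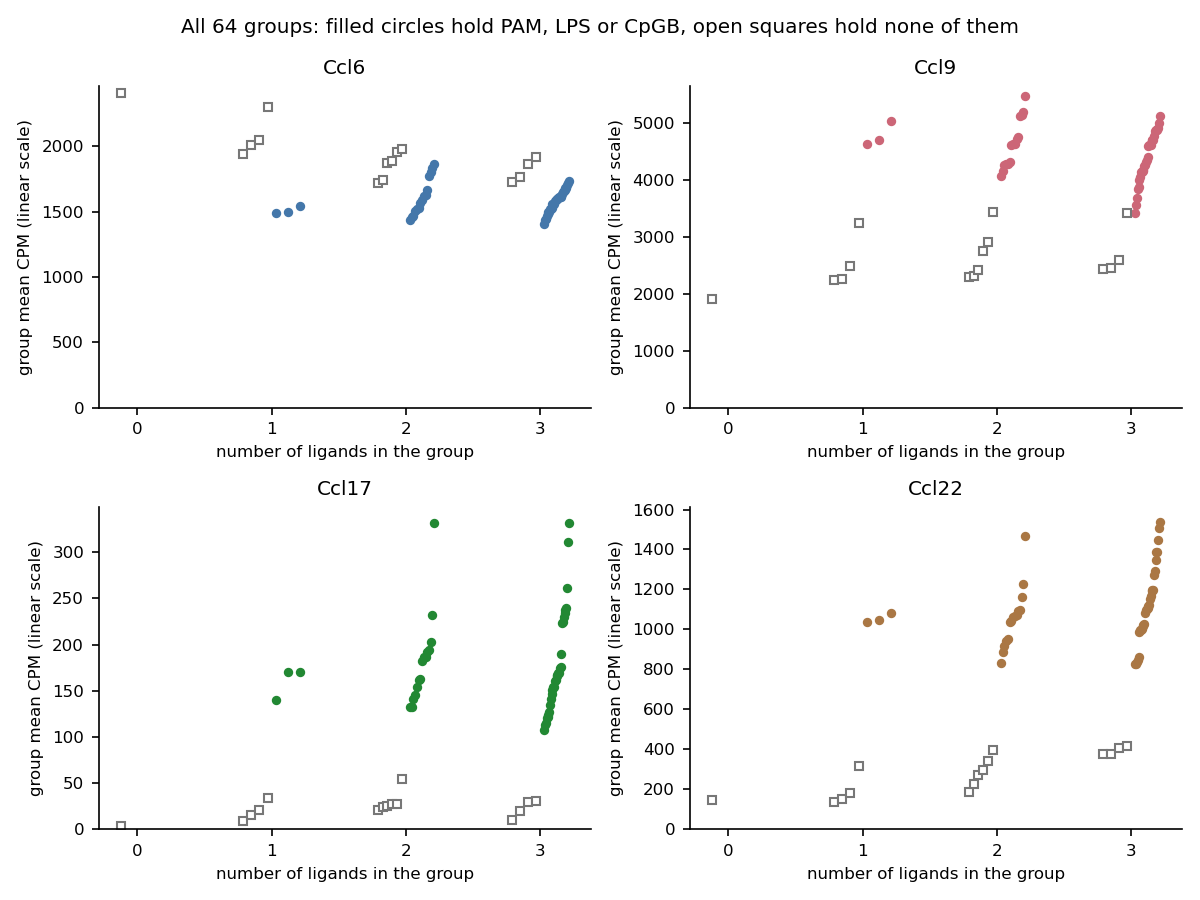
Group means in CPM (vertical axis, linear, from 0) of the 64 groups by the number of ligands (horizontal axis); filled circles are groups with PAM, LPS or CpGB, open squares are groups without. Filled and open symbols are apart for Ccl17 and Ccl22, and nearly so for Ccl9, whose open symbols reach 3437 CPM.

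Against Ctrl, 15 of 21 pairs were called higher for Ccl9, 16 for Ccl17 and 17 for Ccl22, where 13.7% of all tests on pairs were called higher. All 15 pairs with PAM, LPS or CpGB were among the calls of each gene. The other calls were Zymosan with SeV for Ccl17 (log2 change 3.52, edgeR adjusted p = 0.0038), and HMW with Zymosan (1.23, 1.1e-04) and Zymosan with cGAMP (1.39, 3.7e-06) for Ccl22. These 3 were not called when all libraries were thinned to the size of the smallest (adjusted p = 0.067, 0.36 and 0.47). Of 35 triplets, 28 were called for Ccl9, 32 for Ccl17 and 35 for Ccl22, against 15.7% of all tests. Over the 4 genes the triplets gave 95 calls higher and 0 lower, and 68 higher and 16 lower when libraries were scaled by their totals alone. Ccl22 was thus called in the 4 triplets that hold none of PAM, LPS and CpGB, by 1.31 to 1.49 on the log2 scale. The 3 triplets with PAM, LPS or CpGB in which Ccl9 missed the fold were the combinations of Zymosan and cGAMP with PAM, with LPS and with CpGB (log2 changes 0.94, 0.83 and 0.89).

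Ccl6 was lower than in Ctrl, by adjusted p alone, in 20 of 21 pairs and 35 of 35 triplets. Over all genes 11.2% of tests on pairs and 13.2% of those on triplets were called lower by that rule. The exception was HMW with Zymosan (log2 change -0.28, edgeR adjusted p = 0.068), which passed under each of the other scalings (-0.40 with RLE factors). The largest change among pairs was -0.74 with cGAMP and CpGB, and that among triplets -0.76 with SeV, cGAMP and CpGB. None reached the fold threshold of 1. These counts were 7 pairs and 17 triplets without the libraries of replicate 1, and 6 pairs and 10 triplets when no filter on low counts was used. All contrasts against Ctrl share the same Ctrl libraries, so calls across groups are not independent.

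**Figure D3:**
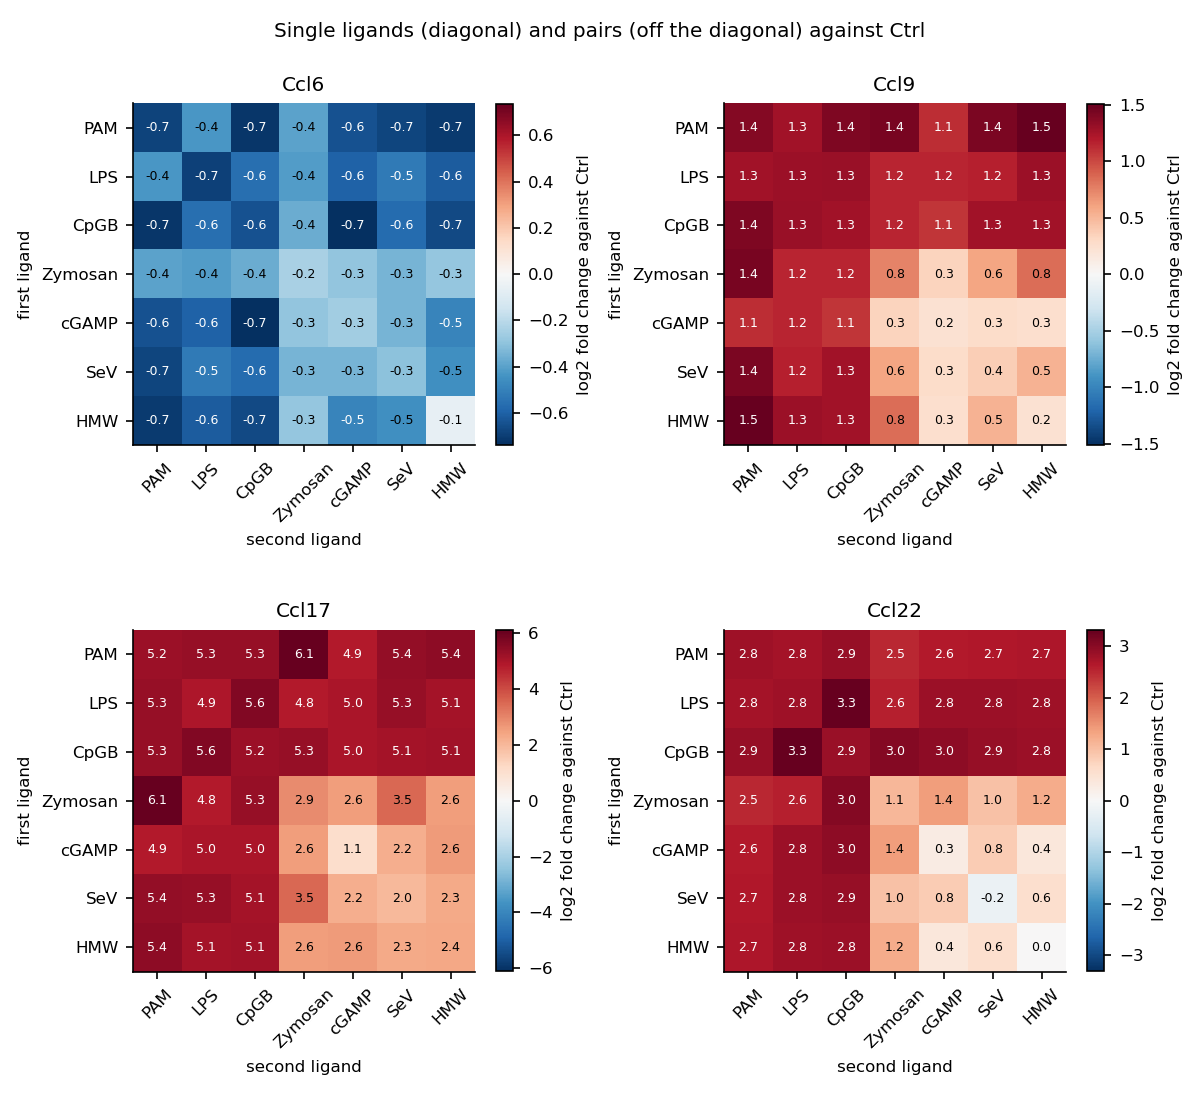
Log2 fold change against Ctrl of Ccl6, Ccl9, Ccl17 and Ccl22 for the 7 single ligands (diagonal) and the 21 pairs (each shown on both sides of the diagonal); rows and columns are ligands and each panel has its own colour scale. The largest Ccl17 change is 6.11, for PAM with Zymosan, and pairs with PAM, LPS or CpGB run from -0.74 to -0.37 for Ccl6.

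The pairs were also set against the sum of their single-ligand changes, an interaction on the log2 scale that is 0 when the changes add up. Ccl22 had negative interactions in 5 of 21 pairs, Ccl17 in 3 and Ccl9 in 10, where 3.5% of all tests were called negative. Ccl6 had positive interactions in 7 pairs, where 1.08% were called positive. All these calls thus pointed toward less change than the sum. Every interaction uses the same Ctrl libraries, so these calls are not independent. The positive calls of Ccl6 were 2, 1 and 3 without the libraries of replicate 1, 2 and 3 in turn. For Ccl22 PAM with LPS gave -2.86 ± 0.28 (SE; edgeR adjusted p = 3.2e-18), PAM with CpGB -2.80 ± 0.28, LPS with CpGB -2.37 ± 0.28 and PAM with Zymosan -1.42 ± 0.31, the last with an adjusted p of 0.073 without replicate 3.

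The pair levels show this directly. PAM with LPS gave 1194, 1122 and 790.6 CPM of Ccl22, which overlapped the libraries of PAM alone. For Ccl9 PAM with LPS gave 4948, 4226 and 4683 CPM and an interaction of -1.42 ± 0.14 (SE; edgeR adjusted p = 2.5e-18), followed by LPS with CpGB (-1.25), PAM with CpGB (-1.24) and LPS with Zymosan (-0.89). For Ccl17 the interactions were -5.17 ± 0.83 for PAM with CpGB, -4.83 ± 0.85 for PAM with LPS and -4.51 ± 0.87 for LPS with CpGB. These rest on the single Ccl17 UMI of the Ctrl libraries. For Ccl6 PAM with LPS gave 1622, 1800 and 1890 CPM, above every library of either ligand alone, with an interaction of 0.94 ± 0.16 (SE; edgeR adjusted p = 5.6e-07). LPS with CpGB (0.77), PAM with CpGB (0.61) and PAM with Zymosan (0.53) followed. LPS with CpGB did not pass without replicate 2 (adjusted p = 0.058), nor PAM with CpGB without replicate 1 or replicate 2 (0.098 and 0.36), and PAM with Zymosan did not pass without any 1 replicate number (0.21 to 0.31).

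No pair exceeded both of its single ligands in any of the 4 genes when an adjusted p under 0.05 and a log2 difference of at least 1 over each were asked for. That rule called 0.336% of all tests higher. At an unadjusted p under 0.05 over each ligand, with no fold asked for, edgeR gave 5 of 84 pairs and genes higher and 1 lower, where 2.83% and 1.48% of all tests were called. The nearest was Ccl17 with PAM and Zymosan, where the libraries gave 442.1, 279.9 and 274.7 CPM against 111.5 to 206.1 with PAM alone and 25.6 to 37.32 with Zymosan alone. The pair did not overlap either ligand, and stood 0.87 ± 0.24 (SE) above PAM on the log2 scale, with an edgeR adjusted p of 0.081 under the rule for both ligands. Ccl22 with LPS and CpGB gave 1299, 1485 and 1627 CPM, above all libraries of LPS and of CpGB, and stood 0.44 above the nearer ligand (adjusted p = 0.097).

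Ccl17 with PAM and Zymosan then differed by the further ligand. Its libraries gave 345.5, 296.7 and 354.5 CPM when CpGB was added, 336, 331.3 and 266.9 CPM with SeV, and 190.4, 330.9 and 263.4 CPM with HMW. With LPS they gave 142.4, 140.9 and 139.1 CPM and with cGAMP 110.1, 114.7 and 98.23 CPM. The first 3 triplets hold the highest Ccl17 means of the series next to the pair itself (332.2, 311.4 and 261.6 CPM). The last 2 lay below every library of PAM with Zymosan, the lowest of which was 274.7 CPM. So did the libraries of 190.4 and 263.4 CPM with HMW and that of 266.9 CPM with SeV. These triplets were picked after their values were seen, and their differences were not tested.

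To average over backgrounds, each ligand was compared by its effect when added to 1 other ligand, the mean of 6 pairs each against the other ligand alone, a comparison that leaves out the Ctrl libraries. By adjusted p, 16.4% of all tests were called higher and 12.3% lower. The 4 genes gave 13 calls higher and 4 lower, and 11 and 7 when libraries were scaled by their totals alone. Without a filter the calls were 13 and 3, and after thinning 9 and 3. PAM, LPS and CpGB raised Ccl22 by 1.53, 1.70 and 1.85 on the log2 scale (SE 0.07 each), Ccl17 by 2.32, 2.07 and 2.16 (SE 0.16 each) and Ccl9 by 0.67, 0.52 and 0.54 (SE 0.04 each). They lowered Ccl6, with log2 changes of -0.23, -0.16 and -0.23 (SE 0.04 to 0.05). All 12 of these changes passed the test (edgeR, largest adjusted p 0.0015, for Ccl6 with LPS, which was 0.085 without replicate 1). These means cover unlike backgrounds. Over each other, the 3 ligands changed Ccl22 by -0.05 to 0.50 and Ccl17 by 0.07 to 0.72. Their changes of Ccl9 were -0.12 to 0.14 and those of Ccl6 -0.08 to 0.26. Over HMW, SeV or cGAMP the changes were 2.35 to 3.06 for Ccl22 and 2.73 to 3.93 for Ccl17. For Ccl9 they were 0.80 to 1.28 there, and for Ccl6 -0.65 to -0.22. Over Zymosan, Ccl22 rose by 1.39 to 1.94 and Ccl6 changed by -0.18 to -0.13.

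Zymosan and cGAMP gave smaller and more selective effects. Added Zymosan raised Ccl22 by 0.52 ± 0.08 (SE; edgeR adjusted p = 1.0e-08), Ccl17 by 0.68 ± 0.20 (0.0060) and Ccl9 by 0.12 ± 0.04 (0.0095), and did not pass the test for Ccl6 (0.09 ± 0.04, 0.13). The Ccl9 call passed in 1 of the 3 fits that each left out 1 replicate number, and did not pass with RLE factors (0.089, adjusted p = 0.080) or library size alone (0.018, 0.76). After thinning, the Ccl17 change was 0.29 (adjusted p = 0.84) and that of Ccl22 0.57 (0.059). Taken singly, added Zymosan changed Ccl22 by -0.32 over PAM, -0.25 over LPS and 0.17 over CpGB. Neither of these falls passed the test. Over cGAMP, SeV and HMW the Ccl22 changes were 1.11 to 1.22. That of Ccl9 ran from -0.14 over LPS to 0.61 over HMW. Added cGAMP raised Ccl22 by 0.27 ± 0.08 (edgeR adjusted p = 0.0027, and 0.076 without replicate 2; 0.063 on the log2 scale, not passing, with library size alone) and lowered Ccl9, with a log2 change of -0.18 ± 0.04 (2.6e-05). The Ccl22 change was 1.01 over SeV, 0.29 to 0.36 over Zymosan and HMW, 0.02 to 0.10 over LPS and CpGB, and -0.18 over PAM. The change of Ccl9 passed over 2 of the 6 other ligands taken singly. Over Zymosan adding cGAMP gave 2327, 2407 and 2507 CPM against 3423, 3283 and 3018 without it (log2 change -0.42 ± 0.10, edgeR adjusted p = 1.8e-04). Over PAM there were 3988, 4047 and 4443 CPM against 4956 to 5131 (log2 change -0.27 ± 0.09, edgeR adjusted p = 0.017), which did not pass without replicate 1 or replicate 2 (adjusted p = 0.22 and 0.14). Over the other 4 ligands it did not pass, with log2 changes of -0.19 over CpGB, -0.14 over LPS, -0.09 over SeV and 0.03 over HMW. HMW and SeV passed the test for none of the 4 genes in this comparison.

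The same averages were taken for a ligand added to 2 others, the mean of 15 triplets each against the pair without it. Here 15.3% of all tests were called higher and 12.6% lower, and the 4 genes gave 12 calls higher and 7 lower (10 and 9 when scaled by library totals alone). PAM, LPS and CpGB kept their direction for each gene and all 12 changes passed, with log2 rises of 0.76, 1.00 and 1.05 for Ccl22, 1.14, 0.87 and 1.19 for Ccl17 and 0.34, 0.20 and 0.26 for Ccl9. Ccl6 fell, with changes of -0.10, -0.12 and -0.11, of which those with PAM and CpGB missed the test without replicate 3 (adjusted p = 0.056 and 0.063). That with CpGB also missed it without replicate 2 (0.065), and that with PAM when no filter was used (0.15). Added cGAMP lowered Ccl9 (-0.25 ± 0.02, edgeR adjusted p = 1.2e-19), Ccl17 (-0.49 ± 0.10, 6.5e-06) and Ccl6 (-0.07 ± 0.03, 0.035), and raised Ccl22 (0.13 ± 0.04, 0.0067; a change of 0.024, not passing, with library size alone). Added Zymosan raised Ccl22 (0.14 ± 0.04, edgeR adjusted p = 0.0030) and lowered Ccl9 (-0.08 ± 0.02, 0.0036). Added SeV raised Ccl22 by 0.11 ± 0.04 (edgeR adjusted p = 0.046, and 0.094 to 0.27 under the other scalings), and HMW passed the test for none. The lower calls here were 7, 4 and 3 without replicate 1, 2 and 3 in turn. The call of SeV and that of cGAMP on Ccl6 each passed in 1 of those 3 fits, and so did that of Zymosan on Ccl9. The Ccl22 calls of Zymosan and cGAMP missed the test without replicate 3 (adjusted p = 0.50 and 0.31).

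**Figure D4:**
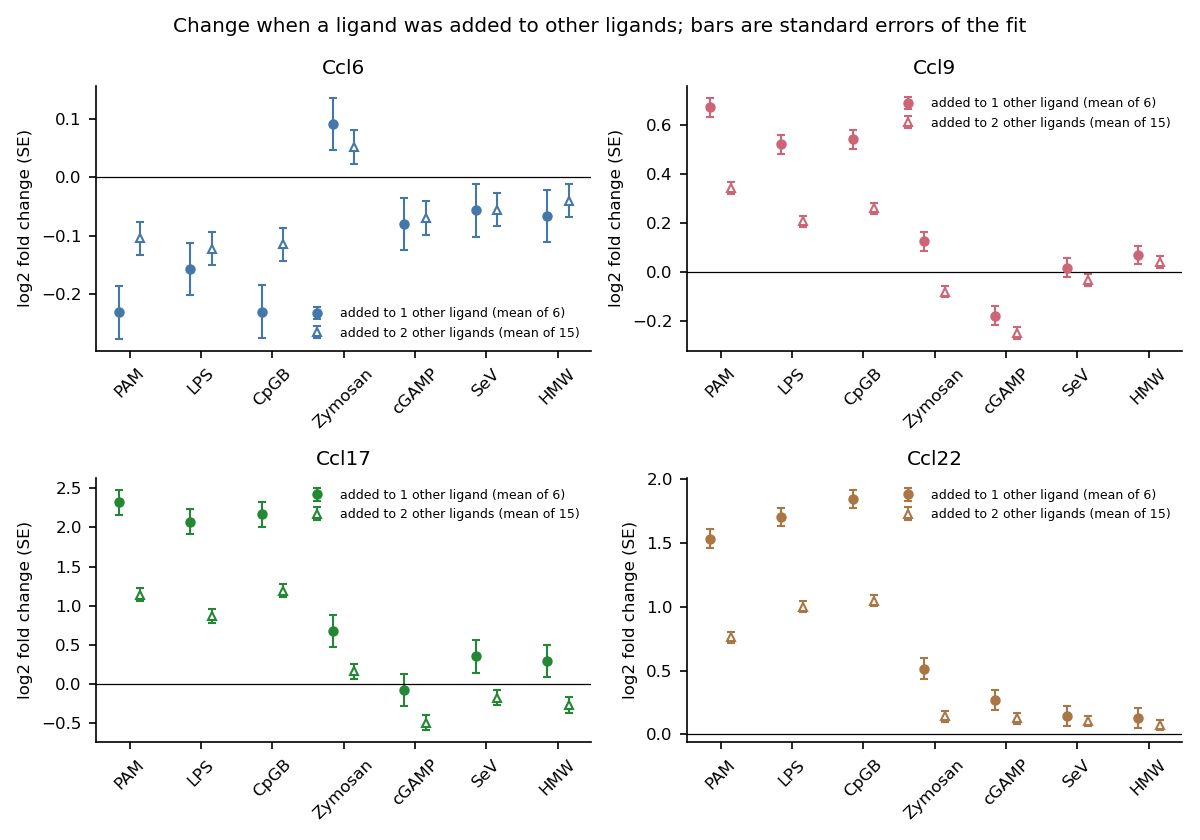
Log2 fold change (vertical axis) of Ccl6, Ccl9, Ccl17 and Ccl22 when a ligand (horizontal axis) was added to 1 other ligand (filled circles, mean of 6) or to 2 others (open triangles, mean of 15); whiskers are standard errors. For cGAMP the Ccl9 points lie under 0 and the Ccl22 points above it.

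Across the 64 group means of log2 CPM, Ccl9, Ccl17 and Ccl22 ran together, with Pearson r of 0.92 for Ccl9 and Ccl17, 0.91 for Ccl17 and Ccl22 and 0.88 for Ccl9 and Ccl22. Ccl6 ran against them, with r of -0.71, -0.69 and -0.78. The points share ligands and control libraries, and the values are descriptions. Of 2628 genes that averaged 50 CPM or more, those closest to Ccl22 were Tarm1 (0.95), Sod2 (0.93) and Cxcl16 (0.93), and the most opposed were Snx5 and Gpx1 (both -0.90). Closest to Ccl17 were Acpp (0.94), Il1b (0.93) and Sod2 (0.93), opposed by Gpx1 (-0.88) and Dock2 (-0.87). Sod2 encodes the mitochondrial superoxide dismutase and Il1b the cytokine interleukin 1 beta. Closest to Ccl9 were Sod2 (0.96), Tnfrsf1b (0.96), a receptor for TNF, and Cav1 (0.95), opposed by Prcp (-0.91) and Fabp5 (-0.90). Ccl6 was nearest to Clec7a (0.84), which encodes the beta-glucan receptor dectin, Psap (0.82) and Adam8 (0.81), and farthest from Fpr2 (-0.86) and Tnfaip2 (-0.82).

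Most receptors of these chemokines were scarce in the cultures. Ccr4 had 36 UMIs over all libraries, Ccr3 had 50 and Ccr8 had 0, and Dpp4, the peptidase that trims several chemokines, had 103. The scavenging receptors Ackr1 and Ackr2, listed under the older symbols Darc and Ccbp2, had 1 and 0. Ccr1, the receptor for Ccl6 and Ccl9, was measured, with 167 CPM in Ctrl and 52.6, 47.08 and 73.82 CPM with PAM, LPS and CpGB. It fell, with log2 changes of -1.73, -1.76 and -1.05 (edgeR adjusted p = 2.5e-04, 1.1e-04 and 0.023), the last of which did not pass without replicate 2 or 3 of Ctrl (adjusted p = 0.11 and 0.26). The change with PAM had an adjusted p of 0.11 when all libraries of replicate 3 were left out.

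Of 16 listed genes of GM-CSF and interleukin 4 signalling, 15 were tested. Over the 7 ligands 12 of 105 tests were called higher (11.4%, against 8.7% over all genes) and 0 lower (4.95% over all genes), with list medians of -0.36 to 0.25 by ligand, against -0.09 to 0.03 for all genes. Jak2, the kinase bound to the GM-CSF receptor, took 5 of the calls, with 89.67 CPM in Ctrl and 351.5, 468.8, 271.2, 236.1 and 231.4 CPM with PAM, LPS, CpGB, SeV and cGAMP. Cish and Irf4, which had the other largest medians, passed the test with no ligand. Of 24 other chemokine ligands, 15 were tested, with 51 of 105 tests called higher (48.6%) and 5 lower (4.76%, near the 4.95% over all genes) and medians of -0.03 to 2.63 (2.55 with genes at 0 in Ctrl set to the limit of 3 counts). Ccl12 and Ccl7 had 0 counts in Ctrl and reached 146.6 and 32.91 CPM with SeV and 130.2 and 124.3 CPM with cGAMP. Cxcl9 was at 10.56 CPM in Ctrl, under the 11.7 CPM that 3 counts give there. It reached 595.8 CPM with SeV and 472.6 CPM with cGAMP, but did not pass the test with PAM.

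Dendritic cell maturation genes gave 25 of 70 tests called higher (35.7%, against 8.7% over all genes) and 0 lower over 10 tested of 13, with medians of 0.49 to 2.32. Cd40, a costimulatory receptor, was at 98.91 CPM in Ctrl, 1538 with LPS, 750.4 with CpGB, 528 with cGAMP, 412.8 with SeV and 360.5 with PAM, all called higher. Cd274 (270.6 CPM in Ctrl, 1761 with LPS, 1669 with cGAMP) and Cd200 (34.88 and 269.7) followed. Alternative activation genes, a programme often listed with Ccl17, Ccl22 and Ccl24, gave 2 of 49 tests called higher (4.08%, against 8.7% over all genes) and 6 lower (12.2%, against 4.95%) over 7 tested of 15, with medians of -0.31 to 0.10. The mannose receptor gene Mrc1 fell from 202.6 CPM in Ctrl to 55.95 (PAM), 93.37 (LPS) and 62.56 (CpGB). Egr2 fell from 81.95 CPM to 28.06, 11.15 and 24.19. Klf4 rose from 7.358 CPM in Ctrl, under the 11.7 CPM that 3 counts give there, to 39.75 with LPS and 58.42 with cGAMP. The Egr2 change with PAM and the Klf4 change with LPS had edgeR adjusted p-values of 0.033 and 0.034, and of up to 0.16 and 0.13 without 1 Ctrl library. Without replicate 2 of Ctrl the adjusted p was 0.064 for Mrc1 with LPS and 0.066 for Egr2 with CpGB, and that of Klf4 with cGAMP was 0.14 without all libraries of replicate 1. The Klf4 change with LPS did not pass under the other scalings (adjusted p 0.050 to 0.12).

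Summed markers of other cell types moved in part with the same division of the groups. Macrophage markers (11 genes, 10 tested) had group sums of 3056 to 5936 CPM with PAM, LPS or CpGB and 3339 to 4451 without. Within that list Cd14 was at 362.1 CPM in Ctrl and 2270 with PAM, and Csf1r at 1718 and 1343. Neutrophil markers (8 of 9 in the table) had sums of 671.4 to 966.8 CPM with and 536.3 to 771.8 without, with Mpo and Elane at 0 in Ctrl. Dendritic cell markers had sums of 7073 to 8911 CPM with and 6416 to 7394 without. The part of these shifts in the chemokine changes was not tested. Eosinophil markers stayed at 33.26 to 98.57 CPM with and 33.7 to 71.05 without. Mast cell and basophil markers summed to at most 19.91 CPM in any group and lymphocyte markers to at most 6.582 CPM, with all 7 lymphocyte markers at 0 in Ctrl.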

How the data were processed

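The deposited table holds UMI counts per gene for every library; per the submitters' processing notes, reads were aligned with BWA 0.7.15 to mm10. The counter, its filters, its use of strand and its treatment of reads that match several genes are not given in the sources used here. Groups were taken from the sample titles and the ligand labels, and every column of the table matched 1 sample. All libraries were fitted together in R 4.3.3 with edgeR 4.0.16 (filterByExpr by group, TMM factors, quasi-likelihood F-test, 1 coefficient per group, 128 residual degrees of freedom). Tested genes held 95.72% of the UMIs. Benjamini-Hochberg adjustment ran over the 4720 genes of the fit, separately per contrast. The call for contrasts with Ctrl, and for pairs beyond both single ligands, needed an adjusted p under 0.05 and a log2 change of at least 1; that for added ligands and interactions the adjusted p alone. CPM used TMM-scaled totals. Standard errors are the log2 change divided by the root of F. Likeness used log2 CPM with a prior count of 2.

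The 5 members and the gene lists were chosen with earlier results of these data known. Named genes were the members, the receptors of the list (1 result is not reported here), the 3 genes of each other list with the largest absolute median change, the 3 most and 2 least alike genes per member, and the 3 highest and lowest groups. The fit was tested on simulated data. Alternatives were RLE factors, library size alone, no filter, thinning to the smallest library, a replicate block, leaving out libraries, separate fits, no fold threshold and DESeq2 1.42.0. The comparison of ligands added to 2 others was chosen after seeing the data. No 2 libraries of a group were identical, and all differed by more than sampling noise. Intervals and limits for low counts cover counting error only.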

Additional observations from a re-analysis of the deposited data

How the results depend on the processing

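The rises of Ccl9, Ccl17 and Ccl22 with PAM, LPS and CpGB alone kept their direction and an adjusted p under 0.05 in every alternative run; with library size alone Ccl9 with LPS was at 0.9953, just under the fold asked for. The falls of Ccl6 with these ligands kept their direction too, and that with CpGB missed the test after thinning all libraries to the smallest. Of 1271 combinations of a named value and an alternative, 1102 kept their direction and side of the threshold, 119 lost a call, 11 gained one and 39 changed sign. The median of all genes shifted by -0.14 to -0.072 with RLE factors, by -0.15 to -0.073 with DESeq2 and by -0.30 to -0.031 with library size alone, depending on the ligand. Relative to that shift the members moved by at most 0.024, 0.12 and 0.048.

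Member calls lower than Ctrl, 0 as reported, were 4 for pairs and 16 for triplets with library size alone. After thinning they were 1 with a single ligand, 4 with a pair and 8 with a triplet, and with no fold threshold 4, 20 and 35. Ccl6 was lower by adjusted p alone with 6 single ligands, 21 pairs and 35 triplets under each other scaling, with 2 single ligands, 10 pairs and 21 triplets after thinning, and with 6 pairs and 10 triplets without a filter. Without a replicate number it was lower in 7 to 20 pairs and 17 to 34 triplets. Lower calls for a ligand added to 1 other were 7 with library size alone, and for 2 others 4 without a filter, 1 after thinning and 3 to 7 without a replicate number. Positive interactions were 1 without a filter, 0 after thinning and 1 to 3 without a replicate number, and negative ones 6 after thinning. After thinning, the interactions of Ccl6 and Ccl22 named in the text missed the test, except Ccl22 with PAM and CpGB, as did those of Ccl17 with CpGB and Ccl9 with cGAMP added to PAM. The cause of these losses was not tested. DESeq2 was not run on interactions or on pairs beyond both ligands.

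The libraries share only a replicate number. Deviations from the group means had a mean r of 0.0083 between libraries of 1 number and -0.0041 between numbers, 0.116% of the former exceeded 0.1, and 167 libraries were closest to their own number, a hint from the data and not the design. With the replicate number as a block the member calls against Ctrl were 10 with a single ligand, 48 with a pair and 95 with a triplet, all higher. Interactions gave 7 positive and 20 negative, and no named value changed its side of the threshold.

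Sign changes touched values without a call, except for Ccl22 with SeV and Ccl6 with CpGB added to 2 others, at -0.082 and 0.012 after thinning. Thinning also gave, for ligands added to 2 others, Ccl17 -0.0036 with Zymosan, and with HMW Ccl22 -0.018, Ccl6 0.0057 and Ccl9 -0.057, and Ccl6 0.017 with SeV. For ligands added to 1 other it gave Ccl17 0.20 with cGAMP, Ccl22 -0.14 with SeV, Ccl6 0.0048 and Ccl9 -0.066 with HMW, and Ccl9 -0.025 with SeV. Against Ctrl it gave Ccl22 -0.51 with HMW and -1.07 with cGAMP, and Ccl9 -0.13 with cGAMP. Ccl22 with HMW was at -0.066 with DESeq2 and with RLE factors, -0.024 with library size alone and -0.021 with HMW and Ctrl alone. Without a filter Ccl22 with SeV was at 0.035 and Ccl6 with HMW at 0.11. Ccl9 with SeV added to 1 other was at -0.017 with DESeq2, -0.019 with RLE factors and -0.11 with library size alone, where it passed (adjusted p = 0.011). Ccl6 with cGAMP added to 1 other, at -0.080 without a call, passed under the other scalings (-0.29 to -0.13). Library size alone also gave Ccl6 -0.015 with Zymosan added to 1 other and Ccl9 -0.017 with cGAMP against Ctrl. Leaving out libraries gave -0.11 to 0.042 for Ccl17 with cGAMP, -0.13 to 0.026 for Ccl6 with SeV and -0.011 to 0.065 for Ccl9 with SeV, all added to 1 other. Against Ctrl it gave -0.17 to 0.40 for Ccl22 with HMW, -0.325 to 0.20 for Ccl22 with SeV and -0.098 to 0.12 for Ccl6 with HMW.

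All alternatives for ligands added to 2 others, for the Ccl6 counts and for named values beyond single and added ligands were chosen after seeing the data, as was the absence of a fold threshold for pairs and triplets. Depth limits the changes from Ctrl most for Ccl17, which had 1 UMI there, and for Ccl24.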
